A study of Mus musculus with 8 samples.

Results

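The major histocompatibility complex class II genes and their transactivator gene Ciita were examined as 8 named members of the 17364 gene symbols in the count tables. The members are the α and β chain genes H2-Aa, H2-Ab1 and H2-Eb1, the invariant chain gene Cd74, the peptide exchange genes H2-DMa, H2-DMb1 and H2-DMb2, and Ciita itself. All 8 were found by symbol, and all 8 passed the filter on low counts. Messenger RNA captured on oligo(dT) beads was sequenced from cultured macrophages derived from mouse bone marrow (BMDMs). There were 4 libraries from Sept2C111A mice and 4 from wild-type mice, and both genotypes carried the same treatment, TNF-α (30 ng/ml, 24 h). In Sept2C111A, as the allele is named, alanine replaces a cysteine of septin 2, a GTP-binding cytoskeletal protein. No culture without TNF-α is among the samples, so the values compare the genotypes in the treated state. The labels give neither strain nor age. Nor do they tie replicates to separate mice or cultures, so p-values measure only the spread between these libraries, which may be technical. Total counts ran from 19543958 to 21288493 per library, and Sept2C111A libraries 2 and 3 stood apart from the other 6 on the first principal component.

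Class II molecules present peptides from endosomes and lysosomes to CD4+ T cells. An α and a β chain assemble around the invariant chain, proteases in the endosome trim the invariant chain down to a short peptide in the binding groove, and the DM heterodimer exchanges that peptide for others. Transcription of these genes rests on CIITA, a co-activator without DNA binding of its own, which is recruited by factors bound to the X box and the Y box of class II promoters. In macrophages CIITA and class II are best known as genes induced by interferon-γ, and resting macrophages make little of either.

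The promoters show which of the members carry these boxes in their most recognisable form. RefSeq promoter windows (GRCm38.p6), each 300 bases long, were matched by symbol for 5 of the 8 members. Letters of 3 boxes were searched on both strands, and the letters were chosen after the class II windows had been read: AACNGATG from the X box, TGACGTCA, a cyclic AMP response element that can form the end of an X box, and TGATTGG, the Y box with its inverted CCAAT. The 150 bases before the start are shown for 4 genes because their boxes line up, 5′ to 3′ on the gene's strand, with the matches in capitals. Each start is that of the RefSeq window, which for H2-DMb2 lies inside the span of the gene given further on.
H2-Aa, chr17:34287824-34287973, minus strand: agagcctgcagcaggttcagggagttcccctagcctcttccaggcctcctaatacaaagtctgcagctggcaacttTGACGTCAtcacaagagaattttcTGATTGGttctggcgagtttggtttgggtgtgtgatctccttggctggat
H2-Eb1, chr17:34305717-34305866, plus strand: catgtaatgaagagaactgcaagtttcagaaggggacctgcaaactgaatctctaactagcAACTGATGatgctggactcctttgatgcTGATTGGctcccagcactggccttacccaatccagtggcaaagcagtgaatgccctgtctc
H2-DMb1, chr17:34153041-34153190, plus strand: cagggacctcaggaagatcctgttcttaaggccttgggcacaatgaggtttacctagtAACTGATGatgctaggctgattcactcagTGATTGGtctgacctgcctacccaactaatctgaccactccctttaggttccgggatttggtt
H2-DMb2, chr17:34145099-34145248, plus strand: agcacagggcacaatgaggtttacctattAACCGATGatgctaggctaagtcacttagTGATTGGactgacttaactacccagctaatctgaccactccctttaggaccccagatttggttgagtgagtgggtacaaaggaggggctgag

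The X box letters stood 20 bases before the Y box letters in H2-Eb1 and 21 bases before them in H2-DMb1 and H2-DMb2. In H2-Aa the response element stood 16 bases before the Y box letters. Among all 32851 mouse windows, 2.32% held AACNGATG, 1.79% held TGACGTCA and 7.82% held TGATTGG. The X box letters followed within 40 bases by the Y box letters occurred in 8 windows (0.0244%), those of H2-Eb1, H2-DMb1, H2-DMb2 and the class II gene H2-Eb2 among them. Neither of the listed windows of H2-DMa held any of the 3 runs. Both windows, at 34122582 to 34122881 and 34125268 to 34125567, lie inside the span of the gene, 34119693 to 34139101. They do not cover the bases before its outermost start, so they do not show whether boxes stand there. The windows of H2-Ab1, Cd74 and Ciita were not used here. A match describes the letters only, and the counts below do not measure binding.

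The class II genes ran from somewhat above the middle of the expressed genes, for Cd74, H2-DMa and H2-DMb1, down to near the limit of detection for Ciita. To set genes of different length side by side, CPM values (counts scaled to a common library total after TMM adjustment) were divided by the transcript length in kb, here the median of the gene's coding transcripts in GENCODE. On that scale Cd74 stood at 22.4 ± 4.93 in Sept2C111A and 29.4 ± 1.31 CPM per kb in wild-type libraries (mean ± SD, n = 4 each, as for all values with ±). H2-DMa stood at 26.8 ± 5.29 CPM per kb in Sept2C111A and 22.0 ± 2.10 in wild-type libraries, and H2-DMb1 at 27.5 ± 3.79 in Sept2C111A and 20.4 ± 1.25 in wild-type libraries. The antigen-presenting chains followed at lower levels. H2-Ab1, the A β chain, had 13.0 ± 1.89 CPM per kb in Sept2C111A and 14.1 ± 1.61 in wild-type libraries. H2-Aa, its α partner, had 4.28 ± 1.04 CPM per kb in Sept2C111A and 5.32 ± 0.653 in wild-type libraries. H2-Eb1, the E β chain, came next at 2.36 ± 0.309 CPM per kb in Sept2C111A and 2.91 ± 0.653 in wild-type libraries. The genes of the lowest level were the DM copy and the transactivator. H2-DMb2 had 0.982 ± 0.371 CPM per kb in Sept2C111A and 0.598 ± 0.195 in wild-type libraries, and Ciita 0.137 ± 0.0448 in Sept2C111A and 0.164 ± 0.0246 in wild-type libraries.

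**Figure D1:**
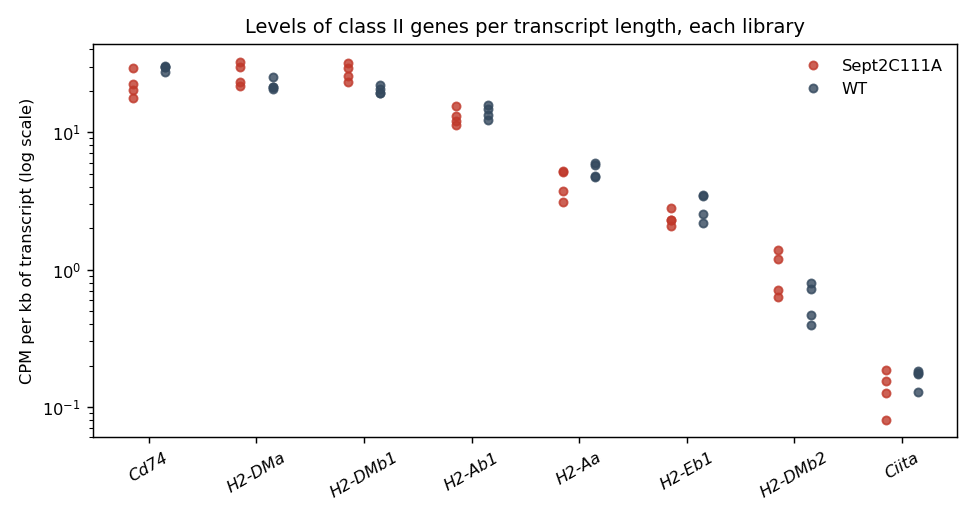
CPM per kb of transcript, on a log axis, for each class II gene in the 4 Sept2C111A (left, red) and 4 wild-type (right, dark) libraries, 1 point per library. The genes run from Cd74, H2-DMa and H2-DMb1, between 17.6 and 32.5, down to Ciita, at 0.186 or less.

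From H2-DMb1 downwards, every gene lay above the next in all libraries of either genotype, with no overlap between the ranges. At the top the order differed between the genotypes. In Sept2C111A libraries Cd74 lay below H2-DMa in all 4 libraries, although the ranges across libraries overlapped. In wild-type libraries Cd74 lay above H2-DMa in all 4, without overlap of the ranges (27.5 to 30.4 against 20.6 to 25.2 CPM per kb). H2-DMa and H2-DMb1, the chains of one heterodimer, overlapped in both genotypes. Of all tested genes, 66.2% had a lower mean CPM than H2-DMa, 62.5% lower than Cd74, 21.8% lower than H2-Aa and 2.34% lower than Ciita.

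Sept2C111A libraries had more RNA of the DM β chain gene H2-DMb1, by 1.35-fold, and this was the only class II gene called. Calls are those with an adjusted p under 0.05 in edgeR's quasi-likelihood test, with Benjamini-Hochberg adjustment over 12462 tested genes. The 1 call among 8 members stands beside a background of 6.46% of all tested genes called, 3.43% as higher and 3.03% as lower, so the count does not set the class II genes apart. In bulk libraries such as these, fewer cells of a type and less RNA per cell cannot be told apart. The members did not share a direction: the 3 DM genes had positive log2 fold changes, and the 3 α and β chain genes, Cd74 and Ciita had negative ones. The median log2 fold change was -0.19 over the 8 members and 0.0086 over all tested genes.

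Among the antigen-presenting chains, H2-Ab1 was the most abundant. It had 10.6, 11.7, 13.9 and 10.1 CPM in Sept2C111A libraries 1 to 4, and 11.8, 10.9, 14.1 and 13.2 CPM in wild-type libraries 1 to 4. The ranges overlapped almost entirely, with the third library highest in each genotype. The log2 fold change of Sept2C111A over wild type was -0.11 (SE 0.12, 95% interval -0.38 to 0.15, adjusted p = 0.60), so the interval spans 0.77-fold to 1.11-fold. Leaving out 1 library gave -0.21 (Sept2C111A library 3) to -0.045 (wild-type library 3 or Sept2C111A library 4). Leaving out Sept2C111A libraries 2 and 3 gave -0.27 (adjusted p = 0.25).

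H2-Aa had 3.64, 5.09, 4.98 and 3.03 CPM in the 4 Sept2C111A libraries, and 4.58, 4.71, 5.66 and 5.82 CPM in the 4 wild-type libraries. Sept2C111A libraries 1 and 4 lay below every wild-type library, while Sept2C111A libraries 2 and 3 lay inside the wild-type range. The log2 fold change was -0.32 (SE 0.18, 95% interval -0.70 to 0.073, adjusted p = 0.29). With Sept2C111A libraries 2 and 3 left out it was -0.64 (adjusted p = 0.064), and with Sept2C111A library 4 left out it was -0.18 (adjusted p = 0.44). H2-Eb1 had 2.93, 3.23, 3.97 and 3.26 CPM in Sept2C111A libraries, and 3.63, 3.08, 4.95 and 4.87 CPM in wild-type libraries. Here too the groups overlapped, and the log2 fold change of -0.30 (SE 0.18, 95% interval -0.70 to 0.091) did not pass (adjusted p = 0.32). It was -0.20 with wild-type library 3 left out and -0.41 with Sept2C111A libraries 2 and 3 left out, also without a call. These genes rested on 61 to 122 reads per library. In 1 such library, 61 reads have an exact Poisson interval of 46.7 to 78.4, which covers counting error only.

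Cd74 encodes the invariant chain, which chaperones class II chains and is also a surface receptor for the cytokine MIF. It had 30.4, 27.1, 39.2 and 23.7 CPM in Sept2C111A libraries 1 to 4, and 39.8, 36.9, 40.3 and 41.0 CPM in wild-type libraries 1 to 4. Sept2C111A libraries 1, 2 and 4 lay below every wild-type library, and library 3 lay within the wild-type range. The coefficient of variation was 22.0% in Sept2C111A and 4.47% in wild-type libraries. The fold change was 0.762 (95% interval 0.627 to 0.927, log2 -0.39, SE 0.13), with an unadjusted p of 0.011 and an adjusted p of 0.092 in edgeR, which missed the threshold. Leaving out Sept2C111A library 3 gave a called log2 fold change of -0.54 (adjusted p = 0.0052). It was also called without Sept2C111A libraries 2 and 3 together (log2 fold change -0.54, adjusted p = 0.011), without TMM scaling (-0.45, adjusted p = 0.044) and by DESeq2 (-0.39, adjusted p = 0.048), out of an adjusted p range of 0.0052 to 0.25 over 17 alternatives. In all 17 it stayed negative. Stromal markers were lower in Sept2C111A as well, with ranges that overlapped slightly: the 8 listed genes summed to 2727 to 3512 CPM in Sept2C111A and 3473 to 4525 CPM in wild-type libraries. Of 7 tested, Col1a1, a fibrillar collagen gene, was called as lower and 6 did not pass, beside 3.03% of all tested genes called as lower. Col1a1 had 1545 ± 168 CPM in Sept2C111A and 2056 ± 257 CPM in wild-type libraries (log2 fold change -0.41, adjusted p = 0.045 in edgeR), and was not called without Sept2C111A libraries 2 and 3 (-0.28, adjusted p = 0.17). Its call also ended with the replicate block (adjusted p = 0.056) and on leaving out Sept2C111A library 2 or 3 or wild-type library 1, 3 or 4 (adjusted p 0.072 to 0.15). The median log2 fold change of the 7 tested stromal genes was -0.38. As lower, 5 were called without Sept2C111A library 4, 3 without Sept2C111A library 1 and 3 with DESeq2. With limma voom, or without wild-type library 2, 2 were called. None was called without Sept2C111A library 2 or 3 or both, without wild-type library 1, 3 or 4, or with the replicate block. The part of these markers in the Cd74 values was not tested.

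**Figure D2:**
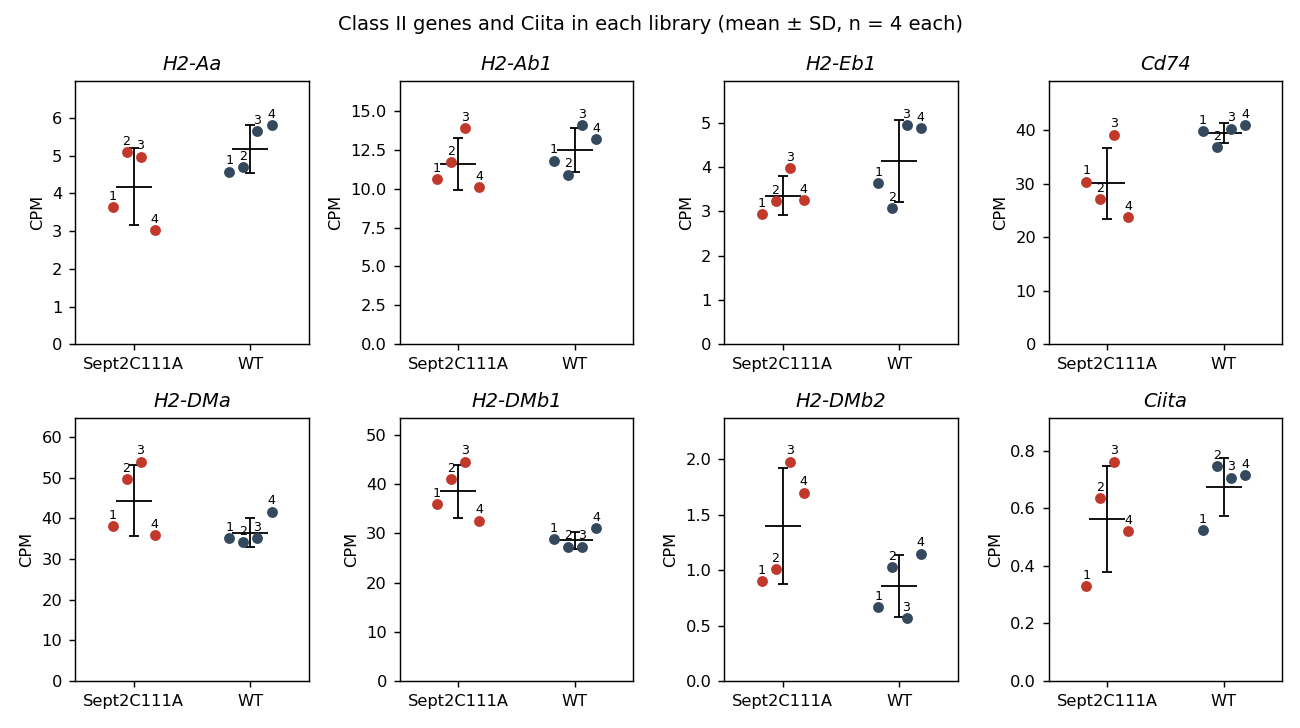
CPM of each class II gene and Ciita, from 0, in Sept2C111A (left, red) and wild-type (right, dark) libraries, with the library number beside each point and mean ± SD in black. H2-DMb1 is the member without overlap, at 32.6 to 44.6 CPM in Sept2C111A and 27.3 to 31.0 CPM in wild-type libraries; in Cd74, Sept2C111A library 3 at 39.2 CPM lies apart from the other 3.

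The DM genes had positive fold changes. H2-DMb1 encodes the β chain of DM and had 35.9, 41.1, 44.6 and 32.6 CPM in Sept2C111A libraries, and 28.9, 27.3, 27.3 and 31.0 CPM in wild-type libraries. All 4 Sept2C111A libraries lay above all 4 wild-type libraries, as was the case for 8.47% of all tested genes. The log2 fold change was 0.43 (SE 0.098, 95% interval 0.21 to 0.64, adjusted p = 0.028 in edgeR). Omitting Sept2C111A library 2, or any 1 of the wild-type libraries, ended the call (adjusted p 0.051 to 0.11). Without Sept2C111A libraries 2 and 3 together the log2 fold change was 0.26, with an adjusted p of 0.099, and with the replicate block it was 0.42 (adjusted p = 0.077). The adjusted p ran from 0.0029 to 0.11 over 18 alternatives, and the fold change was positive in each.

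H2-DMa encodes the DM α chain. It had 38.1, 49.6, 54.0 and 35.9 CPM in Sept2C111A libraries, and 35.2, 34.1, 35.1 and 41.7 CPM in wild-type libraries. Sept2C111A libraries 2 and 3 lay above every wild-type library, and libraries 1 and 4 lay below wild-type library 4. The log2 fold change was 0.28 (SE 0.13, 95% interval -0.0039 to 0.56) and was not called (adjusted p = 0.21). With Sept2C111A library 4 omitted it was 0.37 and was called (adjusted p = 0.046), and with Sept2C111A library 3 omitted it was 0.17 (adjusted p = 0.41). With Sept2C111A libraries 2 and 3 omitted it was 0.018 (adjusted p = 0.94). H2-DMa shares 360 of its 3448 annotated exon bases with Brd2 on the opposite strand, which had 187 ± 19.4 CPM in Sept2C111A and 211 ± 4.31 CPM in wild-type libraries. Whether reads were counted by strand is not known from the labels, and the part of Brd2 reads in the H2-DMa counts was not tested.

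H2-DMb2 is a neighbouring copy of H2-DMb1, with 94.1% identity over 1219 aligned transcript bases, so the split of reads between the copies is uncertain. It had 0.899, 1.01, 1.98 and 1.70 CPM in Sept2C111A libraries, and 0.668, 1.03, 0.566 and 1.15 CPM in wild-type libraries. The groups overlapped, and the log2 fold change of 0.71 (SE 0.32, 95% interval -0.0017 to 1.43) did not pass (adjusted p = 0.20). Its 12 to 39 reads per library were few beside those of H2-DMb1. With the copies summed, the levels were 36.8, 42.1, 46.5 and 34.3 CPM in Sept2C111A and 29.6, 28.3, 27.8 and 32.1 CPM in wild-type libraries, and the sum was called as higher (log2 fold change 0.44, adjusted p = 0.026).

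**Figure D3:**
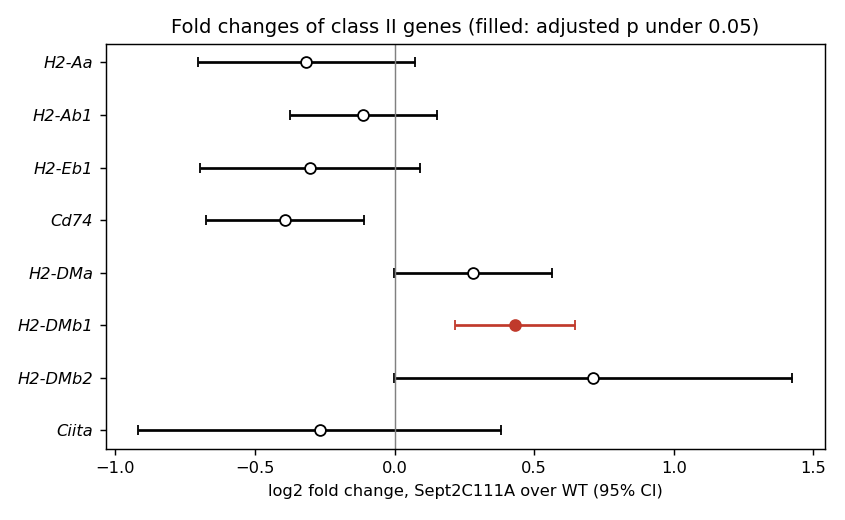
Log2 fold change of Sept2C111A over wild type with its 95% interval for the 8 genes; the filled point passed an adjusted p of 0.05. The interval of Cd74 (-0.67 to -0.11) excludes 0 although its adjusted p did not pass, and the intervals of H2-DMb2 and Ciita are the widest.

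Ciita, the transactivator, was near the limit of detection. It had 7, 12, 15 and 11 reads in Sept2C111A libraries 1 to 4, and 11, 16, 15 and 15 reads in wild-type libraries 1 to 4. The exact Poisson interval of the lowest library, 2.81 to 14.4 reads, overlapped that of the highest, 9.15 to 26.0. In normalised units this was 0.563 ± 0.183 CPM in Sept2C111A and 0.674 ± 0.101 CPM in wild-type libraries, where a count of 0 would allow up to about 0.141 to 0.154 CPM. The log2 fold change was -0.27 (SE 0.30, 95% interval -0.92 to 0.38, adjusted p = 0.61). That interval runs from 0.529-fold to 1.3-fold, so no difference was detectable at this depth. With Sept2C111A library 1 left out the log2 fold change was -0.078. It was -0.45 with Sept2C111A library 3 left out and -0.66 with Sept2C111A libraries 2 and 3 left out (adjusted p = 0.40). Ciita has several promoters that give transcripts with different first exons, and counts per gene do not tell them apart. It also shares 329 of 9535 exon bases with Dexi on the opposite strand, which had 12.6 ± 1.3 CPM in Sept2C111A and 11.2 ± 0.909 CPM in wild-type libraries; the part of Dexi reads in the Ciita counts was not tested.

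The balance between members within a library does not depend on scaling between libraries. For each Cd74 read there were 1.18, 1.52, 1.14 and 1.38 H2-DMb1 reads in Sept2C111A libraries 1 to 4, and 0.727, 0.738, 0.676 and 0.756 in wild-type libraries 1 to 4. Every Sept2C111A library thus held more H2-DMb1 than Cd74 reads, and every wild-type library fewer. H2-DMa gave 1.49 ± 0.247 reads per Cd74 read in Sept2C111A and 0.925 ± 0.0661 in wild-type libraries, also without overlap. Between the chains of the A heterodimer the groups overlapped, with 0.359 ± 0.057 H2-Aa reads per H2-Ab1 read in Sept2C111A and 0.417 ± 0.0263 in wild-type libraries. There were 2.59 ± 0.289 Cd74 reads per H2-Ab1 read in Sept2C111A and 3.18 ± 0.251 in wild-type libraries, and the ranges met at 2.86 to 3 digits. These ratios were chosen after the values had been seen and are given as a description, with no test.

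**Figure D4:**
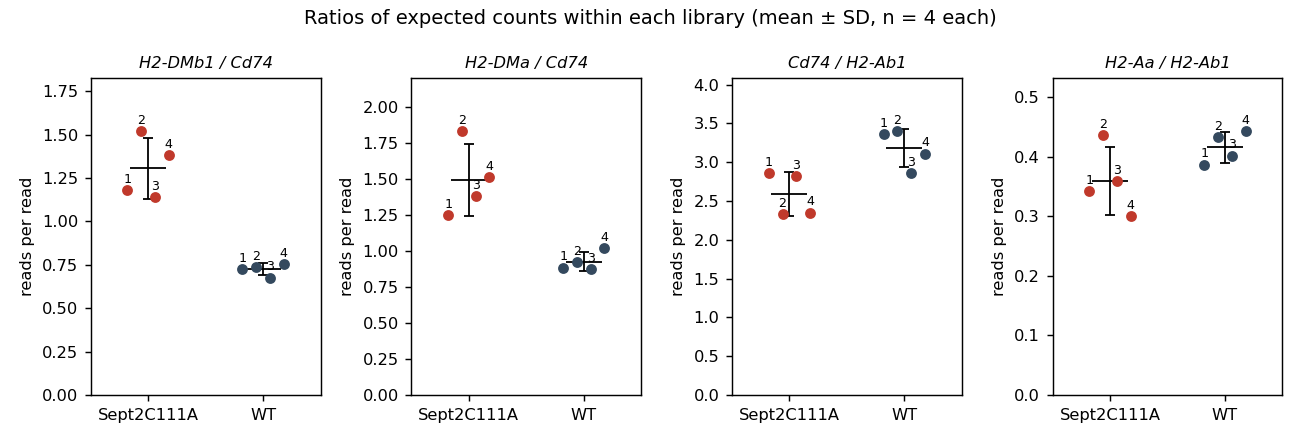
Ratios of expected counts within each library, from 0, for Sept2C111A (left, red) and wild type (right, dark), with library numbers and mean ± SD. H2-DMb1 reads per Cd74 read are 1.14 to 1.52 in Sept2C111A and 0.676 to 0.756 in wild-type libraries, while H2-Aa reads per H2-Ab1 read overlap.

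Some pairs of members varied together among libraries of 1 genotype, and others did not. Over deviations from the genotype means, which share library and scaling, the Pearson correlation of log2 CPM was 0.97 between H2-DMa and H2-DMb1, 0.86 between H2-Ab1 and H2-Eb1 and 0.82 between H2-Aa and H2-Ab1. It was also high across the classes, at 0.86 between H2-Aa and H2-DMb1 and 0.76 between Cd74 and H2-DMb1. H2-DMb2, with few reads, followed the members other than Ciita less: its values were 0.0017 with H2-Aa, 0.090 with H2-Ab1, 0.19 with H2-Eb1, 0.18 with Cd74, 0.25 with H2-DMb1 and 0.31 with H2-DMa. With Ciita, also of few reads, it was 0.59. The values of Ciita ran from 0.29 with Cd74 to 0.69 with H2-DMa. Over all 8 libraries without that adjustment, the same values were -0.094 between H2-Aa and H2-DMb1 and -0.34 between Cd74 and H2-DMb1. Both figures describe 8 libraries and carry no test.

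Whether Ciita followed the chain genes was asked over 8 libraries and 7 relations. With H2-Aa, Pearson's r was 0.70 (exact permutation p = 0.095, adjusted p = 0.25) and Spearman's rho 0.62 (exact permutation p = 0.12, adjusted p = 0.40). With H2-Ab1, r was 0.62 and rho 0.62, and with H2-Eb1 r was 0.56 and rho 0.43 (exact permutation adjusted p = 0.25 for each r). The other relations had r between -0.078, with H2-DMb1, and 0.48, with Cd74. Over deviations from the genotype means, as a description, r was 0.69 with H2-DMa, 0.55 with H2-DMb1, 0.59 with H2-DMb2, 0.62 with H2-Aa, 0.56 with H2-Ab1 and 0.45 with H2-Eb1. Of the relations over all 8 libraries, none passed after adjustment in the two-sided permutation test. The values over deviations were not tested. Without the 2 libraries farthest from the median of Ciita, Sept2C111A libraries 1 and 4, r was 0.43 with H2-Aa, 0.35 with H2-Ab1 and 0.23 with H2-Eb1. It was 0.16 with Cd74 and 0.26 with H2-DMa. It went the other way with H2-DMb2, from 0.18 to 0.55, and with H2-DMb1, from -0.078 to 0.17.

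Genes whose log2 CPM over the 8 libraries was most like the mean of H2-Aa, H2-Ab1, H2-Eb1 and Cd74 were looked for among 10894 genes with at least 2 CPM. The closest were Eci2 (r = 0.95, rho = 0.93), Farsa (r = 0.95, rho = 0.91), Mecr (r = 0.94, rho = 0.95), Rhoc (r = 0.94, rho = 0.98) and Ifi27 (r = 0.94, rho = 0.86). They were picked for this likeness, so no p is given. Not one of the 5 was called between the genotypes, and 40 genes had r of at least 0.9.

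Factors and co-activators that act at class II promoters did not differ detectably. Of 10 tested, 0 were called, and 0 also had an unadjusted p under 0.05, beside 24.8% of all tested genes. DESeq2, limma and every other alternative also called 0. Rfx5, a subunit of the X box factor RFX that was picked after its values were seen, had 22.9 ± 4.24 CPM in Sept2C111A and 25.6 ± 1.34 CPM in wild-type libraries. Ep300, a co-activator, had 93.1 ± 28.1 CPM in Sept2C111A and 95.6 ± 12.4 CPM in wild-type libraries. Nfya, a subunit of the Y box factor NF-Y, had 98.9 ± 11.8 CPM in Sept2C111A and 106 ± 4.79 CPM in wild-type libraries. The median log2 fold change of the list was -0.032.

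Of 13 tested genes that govern Ciita, 2 rose, 1 fell and 10 did not pass. Of all tested genes, 3.43% were called as higher and 3.03% as lower. Irf1, a transcription factor that acts on the interferon-responsive Ciita promoter, fell to 275 ± 31.9 CPM in Sept2C111A, against 350 ± 16.8 CPM in wild-type libraries (log2 fold change -0.34, SE 0.085, adjusted p = 0.036 in edgeR). Irf8, a lineage factor of myeloid cells, rose to 157 ± 14.9 CPM in Sept2C111A, against 116 ± 3.50 CPM in wild-type libraries (log2 fold change 0.44, SE 0.074, adjusted p = 0.0070). The median log2 fold change of this list was 0.018.

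Irf8 stayed called under every alternative. Irf1 was no longer called on leaving out Sept2C111A library 1 or any 1 of the wild-type libraries (adjusted p 0.055 to 0.10).

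Several proteases that act on the invariant chain and on antigen had more RNA in Sept2C111A libraries. Of 8 genes tested, 4 rose, 0 fell and 4 did not pass, with a median log2 fold change of 0.33. Of all tested genes, 3.43% were called as higher and 3.03% as lower. The list was chosen with earlier results of these data known, so the count carries no test. Ctss encodes cathepsin S, the protease that completes invariant chain cleavage in macrophages and dendritic cells. It rose to 1312 ± 69.1 CPM in Sept2C111A, against 900 ± 38.7 CPM in wild-type libraries (log2 fold change 0.54, SE 0.066, adjusted p = 0.0011 in edgeR). Lgmn, an asparaginyl endopeptidase that opens antigens and the invariant chain, rose to 1430 ± 116 CPM in Sept2C111A, against 1084 ± 38.9 CPM in wild-type libraries (adjusted p = 0.011). Ctsb and Ctsl, further cathepsin genes, had log2 fold changes of 0.42 and 0.25 (adjusted p = 0.022 and 0.041).

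Ctss stayed called under all alternatives that kept it in the fit, and Lgmn under all but the omission of wild-type library 1 (adjusted p = 0.054). Ctsb and Ctsl were not called with Sept2C111A library 2 or any 1 of the wild-type libraries left out (adjusted p 0.064 to 0.11), nor with the replicate block (0.057 and 0.10). Ctsl also missed the threshold with Sept2C111A library 1 left out (0.059), with Sept2C111A libraries 2 and 3 left out (0.072) and with no TMM scaling (0.097). The list had 7 rises when Sept2C111A library 4 was left out and 3 when Sept2C111A libraries 2 and 3 were. It had 2 when Sept2C111A library 2 or wild-type library 2, 3 or 4 was left out or the replicate block was used, and 1 when wild-type library 1 was left out. Ifi30, a thiol reductase of the antigen pathway, had 123 ± 21.4 CPM in Sept2C111A and 99.4 ± 6.04 CPM in wild-type libraries and did not pass (adjusted p = 0.12, chosen after its values were seen).

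Marchf1, a ubiquitin ligase that removes class II from the surface, rose to 65.7 ± 4.42 CPM in Sept2C111A, against 51.7 ± 5.33 CPM in wild-type libraries (log2 fold change 0.35, SE 0.084, adjusted p = 0.035 in edgeR). It was the 1 call among 3 tested genes of class II turnover, beside 6.46% of all tested genes called. Cd83, which opposes Marchf1, had 164 ± 17.8 CPM in Sept2C111A and 180 ± 20.1 CPM in wild-type libraries without a call. Marchf1 was not called with Sept2C111A library 2, Sept2C111A libraries 2 and 3, or wild-type library 1, 3 or 4 left out, nor with no TMM scaling (adjusted p 0.053 to 0.12). Of 6 ligands and partners of CD74, Cxcr4 alone was called, beside 6.46% of all tested genes, and it stayed called under every alternative. This chemokine receptor, which can pair with CD74, rose to 80.8 ± 9.29 CPM in Sept2C111A, against 34.5 ± 3.98 CPM in wild-type libraries (log2 fold change 1.23, SE 0.10, adjusted p = 0.00028). Mif, the ligand gene, had 400 ± 67.6 CPM in Sept2C111A and 428 ± 36.1 CPM in wild-type libraries and was not called.

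**Figure D5:**
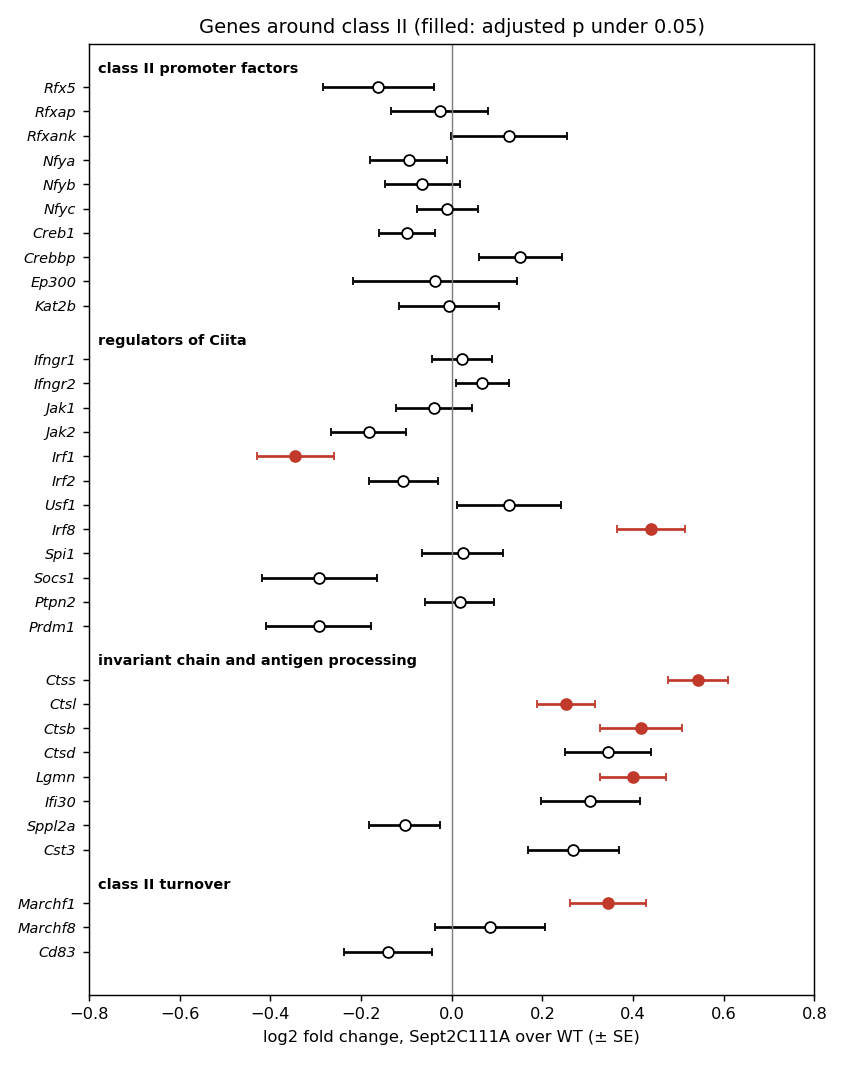
Log2 fold change of Sept2C111A over wild type (± SE) for genes of 4 lists around class II; filled points passed an adjusted p of 0.05. Promoter factors lie around 0, 4 antigen processing genes are filled on the right, and Irf1, at -0.34, is the filled point on the left.

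On chromosome 17 the class II members lie between 34119693 and 34316674 (mm10), from H2-DMa to H2-Eb1, with class I processing genes among them. H2-DMb2 spans 34143229 to 34151553, H2-DMb1 34153191 to 34160229, H2-Ab1 34263227 to 34269418, H2-Aa 34282744 to 34287823 and H2-Eb1 34305867 to 34316674. Ciita lies on chromosome 16 at 10480014 to 10531064, and Cd74 on chromosome 18. Of 11 tested genes of the chromosome 17 interval, 3 rose and 0 fell: H2-DMb1, the transporter gene Tap1 (log2 fold change 0.53, adjusted p = 0.022) and the immunoproteasome gene Psmb9 (0.53, adjusted p = 0.029), which sit between the DM genes and H2-Ab1. Among all tested genes, 3.43% were called as higher. Leaving out Sept2C111A library 2, Sept2C111A libraries 2 and 3, or wild-type library 1 or 3 gave 0 calls in the interval. Leaving out wild-type library 2 gave 1, and leaving out Sept2C111A library 4 gave 5. The DO chain genes H2-Oa and H2-Ob had 10 reads or fewer in every library, H2-Eb2 had 2 or fewer, and none of these was tested.

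The libraries carried the markers of macrophages. The 8 listed genes summed to 19313 to 21013 CPM in Sept2C111A and 21209 to 22963 CPM in wild-type libraries, without overlap. The most abundant was the lysozyme gene Lyz2, with 12366 ± 897 CPM in Sept2C111A and 14365 ± 498 CPM in wild-type libraries (not called). The 1 call among them, beside 6.46% of all tested genes called, was Fcgr1, an Fc receptor gene. Its level was 193 ± 39.9 CPM in Sept2C111A and 84.9 ± 11.3 CPM in wild-type libraries. With Sept2C111A libraries 2 and 3 left out, 3 of the 8 were called as higher and 1 as lower, and DESeq2 on all libraries gave the same counts. Leaving out either of these libraries alone gave 2 higher calls, and 1 was called as lower without TMM scaling or without Sept2C111A library 4.

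Markers of other cells that make class II were low but present. The 8 dendritic cell markers summed to 7.52 to 12.4 CPM in Sept2C111A and 10 to 17.8 CPM in wild-type libraries, with 0 of 5 tested called and Clec9a and Ccr7 at 1 read or fewer. The most abundant was the integrin gene Itgax, with 4.35 ± 1.92 CPM in Sept2C111A and 7.05 ± 4.04 CPM in wild-type libraries. The 6 B cell markers summed to 10 to 13.7 CPM in Sept2C111A and 10.9 to 12.3 CPM in wild-type libraries, with 0 of 2 tested called and Ms4a1 at 1 read or fewer. Most of that sum was Cd79b, a B cell receptor signalling gene, with 137 to 226 reads per library, more than H2-Aa had. It stood at 8.41 ± 2.31 CPM in Sept2C111A and 7.71 ± 1.16 CPM in wild-type libraries. Ebf1, a B cell lineage factor, had 2.53 ± 0.824 CPM in Sept2C111A and 3.99 ± 0.687 CPM in wild-type libraries (log2 fold change -0.65, adjusted p = 0.11 in edgeR). All its Sept2C111A values lay below all its wild-type values, as was the case for 8.47% of all tested genes. The part of these markers in the class II values was not tested. T cell markers reached at most 1.56 CPM in Sept2C111A and 2.0 CPM in wild-type libraries, and neutrophil markers at most 8.18 CPM in Sept2C111A and 3.68 CPM in wild-type libraries, with 0 called in either list. Of all tested genes 6.46% were called, so 0 calls among so few genes do not set these 4 lists of markers apart. Septin2, the edited gene, had 188 ± 18.7 CPM in Sept2C111A and 226 ± 7.43 CPM in wild-type libraries (adjusted p = 0.063 in edgeR), and counts per gene cannot show the edited codon.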

How the data were processed

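RNA captured on oligo(dT) beads was sequenced as 4 Sept2C111A and 4 wild-type macrophage libraries. For each gene symbol the authors deposited an expected count, an estimate that can hold fractions. Per the submitters' processing notes, the tools were Bowtie2, RSEM 1.3.1 and DESeq2 1.4.5 and the build mm10, with no role stated. The annotation and the strandedness, not given in the sources used here, could change how overlapping genes were counted. Expected counts were rounded, filtered with filterByExpr (minimum count 10), scaled by TMM and fitted with edgeR 4.0.16 in R 4.3.3, with genotype as the only term; the SE is the log2 fold change over the square root of F. DESeq2 1.42.0 and limma 3.58.1 (voom) were alternatives. Counts were also simulated with the same dispersion (spread beyond counting error) for every gene and both genotypes, over 12390 tested genes. On these edgeR called 98 of 99 genes changed by 1 on the log2 scale, 75 of 99 changed by 0.5, and 10 unchanged genes. Library pairs of 1 genotype had a mean chi-square per gene of at least 3.87, so no library was a copy. It was 14.1 to 63.3 between Sept2C111A libraries and 3.87 to 9.73 between wild-type libraries, a difference that the simulation left out. The simulated calls therefore do not measure power or false calls on these data. Symbols matched RefSeq GRCm38 for 17288 of 17364 genes; 93 of 102 list entries were found, and the others were not analysed here.

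The members and gene lists were chosen with earlier results of these data known. The rule for names takes all members in every library, called genes of each list or up to 2 of its most abundant, and the 5 genes most like the chain genes. Intervals and the limit of 3 counts cover counting error only. Some genes counted in the lists are not reported here by name.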

Additional observations from a re-analysis of the deposited data

Results flagged for a closer look

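Wild-type library 4 had the highest H2-DMa level of its genotype, at 41.7 CPM, far from the other wild-type libraries at 34.1 to 35.2 CPM. Its gap to the nearest of them was 0.855 of the whole range, above Dixon's critical value of 0.829 for 4 samples. Of 16 combinations of gene and genotype examined, this was the 1 past that limit, and chance flags about 1 in 20 such groups.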

How the results depend on the processing

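Alternatives covered scaling, filters, each library left out, Sept2C111A libraries 2 and 3 left out together, a replicate block, DESeq2, limma voom and the 100 most abundant genes left out. The count of called genes was 805 and ran from 266 to 2077 on leaving out 1 library (266 without wild-type library 3, 2077 without Sept2C111A library 4). With Sept2C111A libraries 2 and 3 left out it was 492, and it was 494 with the replicate block and 1428 with DESeq2. The count of called class II genes was 1 and ran from 0 to 2 on leaving out 1 library. It was 0 with the replicate block, 2 without TMM scaling and 2 with DESeq2, Cd74 being the added call in both; without Sept2C111A libraries 2 and 3 it was 1, Cd74 in place of H2-DMb1. Counting all alternatives, those above included, 8 for all genes and 7 for the class II genes stayed within 1.5 times the count. The 7 include the omission of Sept2C111A libraries 2 and 3, where the count held but the called gene differed. No class II fold change changed sign. The cause of the changes was not tested.

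On leaving out 1 library, r of Ciita with H2-DMb1 ran from -0.432 to 0.135 and with H2-DMb2 from -0.0601 to 0.391. Same-numbered libraries of the genotypes share only a number: the correlations of their deviations were 0.137, 0.0956, -0.023 and -0.237, and the labels give no shared litter or day. A level filter of 1 CPM in 4 libraries left Ciita out. With 7 to 16 reads per library, Ciita limits any statement on its own change.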
